A study of Mus musculus with 4 samples.

Results

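The 10 genes described here are Egr1, Egr2, Nr4a1, Nr4a2, Nr4a3, Ier2, Ier3, Zfp36, Btg2 and Dusp1, immediate early genes of the EGR and NR4A transcription factor families together with 5 early genes of other kinds. They were taken by name from the 54532 genes of the table, and 8 of the 10 reached the level at which genes were tested. Male mice of the C57BL/6 strain, 10 to 12 weeks old, gave 4 RNA-seq libraries of whole pancreatic islets, 2 from wild-type mice and 2 from mice whose beta cells overexpress the miR-29a/b-1 cluster from a beta cell specific transgene. The promoter that drives the transgene, and whether a library holds islets of a single mouse or of pooled mice, are not given in the sources used here, so a p-value here reflects no more than how these libraries vary, and that variation may be technical. The libraries carry a number in their labels and are named below wild type 1 and 2 (wt1 and wt2) and transgenic 1 and 2 (miR29ab1 and miR29ab2).

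Immediate early genes are transcribed within minutes of a stimulus, from factors already present in the cell, and their messages are short lived. Growth factors act on them mainly through the ERK kinases, serum response factor and its ETS partners, which bind CArG boxes and neighbouring sites, and cAMP and calcium act through CREB, which binds the cAMP response element. In islets, glucose and incretins raise several of them in beta cells by depolarization and cAMP, and the isolation of islets from the pancreas is itself known to induce them. Among the genes here, the EGR and NR4A proteins are transcription factors, Zfp36 and Btg2 hasten the decay of messenger RNA, and Dusp1 switches off the kinases that induce the whole class.

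Promoter sequences are shown as a description of these genes. Whether their motifs play a part in the differences between the libraries was not tested. RefSeq windows on GRCm38.p6, from 250 bases before to 50 bases after a start site, existed for 8 of the 10 members, and Egr1 and Ier2 had none. The core of the cAMP response element, TGACG on either strand, occurred in 20.8% of all 32851 windows and in a window of 6 of the 8 members. Each of the NR4A genes held 4 cores, a number reached by 0.231% of all windows. The 250 bases before each NR4A start follow, 5′ to 3′ on the gene's strand, with the cores in capitals.
Nr4a1, chr15:101266596-101266845, plus strand: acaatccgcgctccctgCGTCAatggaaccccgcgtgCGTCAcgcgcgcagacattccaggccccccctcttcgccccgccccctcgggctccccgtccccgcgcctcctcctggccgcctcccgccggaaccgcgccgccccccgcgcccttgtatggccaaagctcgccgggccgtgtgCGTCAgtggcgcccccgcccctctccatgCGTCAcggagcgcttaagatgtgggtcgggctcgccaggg
Nr4a2, chr2:57124004-57124253, minus strand: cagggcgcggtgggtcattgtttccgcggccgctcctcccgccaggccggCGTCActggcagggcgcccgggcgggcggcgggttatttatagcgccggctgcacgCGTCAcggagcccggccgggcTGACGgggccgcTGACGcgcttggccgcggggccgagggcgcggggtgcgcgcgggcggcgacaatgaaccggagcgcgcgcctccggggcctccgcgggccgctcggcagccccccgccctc
Nr4a3, chr4:48045055-48045304, plus strand: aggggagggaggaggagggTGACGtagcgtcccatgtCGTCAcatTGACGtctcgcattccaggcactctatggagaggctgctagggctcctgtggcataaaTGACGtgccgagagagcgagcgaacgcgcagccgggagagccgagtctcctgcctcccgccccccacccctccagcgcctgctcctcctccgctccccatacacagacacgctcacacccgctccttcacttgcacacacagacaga
In Nr4a1 the cores began 233, 213, 69 and 40 bases before the start, and all 4 were in the CGTCA orientation. In Nr4a2 they began 200, 144, 123 and 111 bases before it, and in Nr4a3 231, 213, 205 and 147 bases before it. A match is a description of these letters and not evidence of binding, and the windows of a gene can overlap, so the shares are shares of windows and not of genes.

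Dusp1 and Zfp36 are shown because they carry the whole cAMP response element and the CArG box. The palindrome TGACGTCA, which holds 2 overlapping cores, occurred in 1.79% of windows, and among the members in those of Dusp1 and Btg2. The CArG box occurred in 1.63% of windows, and among the members in that of Zfp36 and in 4 of the 5 overlapping or neighbouring windows of Egr2. Capitals mark these elements and any separate core.
Dusp1, chr17:26508473-26508722, minus strand: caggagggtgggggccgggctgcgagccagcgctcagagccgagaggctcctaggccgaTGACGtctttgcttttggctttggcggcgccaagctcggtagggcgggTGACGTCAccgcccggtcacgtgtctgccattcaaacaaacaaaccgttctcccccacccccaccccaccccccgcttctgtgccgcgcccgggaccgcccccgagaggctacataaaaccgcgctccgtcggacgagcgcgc
Zfp36, chr7:28379229-28379478, minus strand: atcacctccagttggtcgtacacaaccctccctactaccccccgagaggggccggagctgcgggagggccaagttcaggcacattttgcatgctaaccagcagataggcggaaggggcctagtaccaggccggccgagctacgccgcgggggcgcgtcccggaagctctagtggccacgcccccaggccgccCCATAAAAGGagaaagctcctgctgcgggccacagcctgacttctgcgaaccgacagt
The palindrome of Dusp1 began 143 bases before the start and a separate core 191 bases before it, and the palindrome of Btg2 began 166 bases before its start. The CArG box of Zfp36 began 58 bases before the start. A site of the EGR type, GCGGGGGCG on either strand, was in 2.91% of windows, and among the members in those of Zfp36, 105 bases before the start, and Nr4a1, 60 bases before it. The variant GCGTGGGCG, in 0.612% of windows, and the NR4A monomer site AAAGGTCA, in 1.51%, were in no member's window. The GC box GGGCGG on either strand, in 35.7% of all windows, was in a window of each of the 8 members, and the members' windows held 54.0% to 81.7% G or C against a median of 52.7% over all windows.

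**Figure D1:**
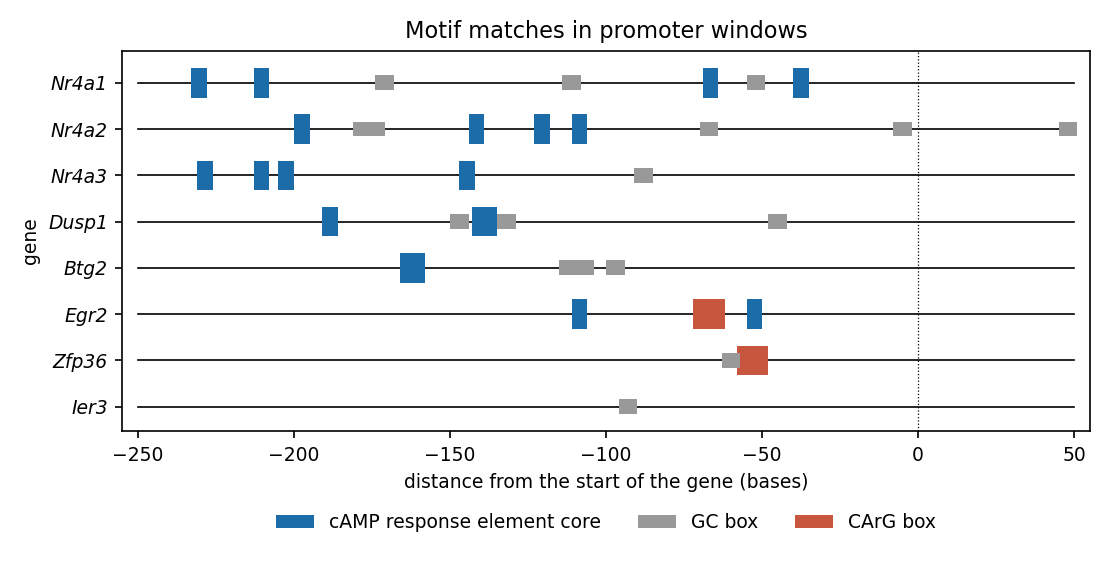
Positions of motif matches in the promoter windows of members, in bases from the start site, with 1 row for each gene and a mark for each match on either strand (for Egr2, in 1 of its 5 windows). The 3 NR4A rows each carry 4 cAMP response element cores, Dusp1 and Btg2 carry the whole element as a wider mark of overlapping cores, and Zfp36 and Egr2 carry a CArG box.

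The transgene's products and their possible pairing sites in the members are shown next. The mature miR-29a and miR-29b, encoded next to each other on mouse chromosome 6, share their seed, bases 2 to 8, given in capitals from RefSeq on GRCm38.p6.
mmu-miR-29a-3p: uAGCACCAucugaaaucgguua
mmu-miR-29b-3p: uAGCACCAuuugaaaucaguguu
The 7 bases that pair with this seed, TGGTGCT, occurred in the 3′ UTRs of Zfp36 and Btg2 and of no other member, in transcripts of the GENCODE annotation of GRCm38. Zfp36 held 2 matches, 143 and 498 bases into a 3′ UTR of 774 bases, and Btg2 held 1, 1266 bases into a 3′ UTR of 2199 bases. Each match is in capitals with its neighbours.
Zfp36, first match: acccatttcccTGGTGCTgggctggggca
Zfp36, second match: cctgagaatccTGGTGCTcaaatttccct
Btg2: ctttagctcctTGGTGCTcagagcacctg
Of 10704 tested genes with a 3′ UTR of at least 50 bases, 15.6% held a match and 2.24% held 2 or more. Zfp36 and Btg2 were both at higher FPKM in the transgenic library of each number, by the values given below. So were the members without a match, other than Nr4a1. A match is a description of these letters, and whether miR-29 acts on these messages was not tested.

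The read depth and the makeup of the islets set how the values can be read. Reads in genes numbered 21670854 to 27080907 per library. In a gene of 1 kilobase, 1 read was worth 0.0386 to 0.0476 FPKM (fragments per kilobase of gene, scaled by the authors with a factor for each library). The totals implied by that scaling were 0.957 to 1.09 times the reads in genes. Beta cell markers, led by the insulin gene Ins2 with 12.8% to 26.6% of reads, were abundant in each library, and their summed FPKM was 223828, 286857, 151540 and 271466 in wt1, wt2, miR29ab1 and miR29ab2. The rows of the transgene's own precursors check nothing, since Mir29a had 3 reads in wild type 2 and 0 elsewhere and Mir29b-1 had 0 in all 4 libraries. Libraries of the same number lay together, and the leading principal component, with 77.9% of the variance, separated number 1 from number 2. The labels do not say what the number marks, so each comparison of genotypes is given over all 4 libraries and within each number.

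EGR1, a zinc finger transcription factor induced by glucose and growth factors, had the highest level of the members in each library. Egr1 (ENSMUSG00000038418, chromosome 18, bases 34859823 to 34864984 of GRCm38) stood at 288 FPKM in wt1, 67.6 in wt2, 409 in miR29ab1 and 105 in miR29ab2. Both number 1 libraries were far above both number 2 libraries, and transgenic 2 lay below wild type 1, so the genotypes overlapped. The ratio of transgenic to wild type was 1.42 in number 1 and 1.55 in number 2, while the ratio of number 1 to number 2 was 4.25 in wild type and 3.90 in transgenic islets. The group means were 178 ± 156 FPKM (SD, n = 2) in wild type and 257 ± 215 FPKM (SD, n = 2) in transgenic islets, a difference smaller than either SD.

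EGR2, a close relative of EGR1 that shares its binding site, was below the level tested. Egr2 (ENSMUSG00000037868, chromosome 10, bases 67535475 to 67542188) stood at 0.801, 0.306, 0.947 and 0.420 FPKM in wt1, wt2, miR29ab1 and miR29ab2, from 65, 27, 83 and 30 reads. Its exact Poisson intervals at 95%, which cover counting error only, were 0.618 to 1.02 and 0.755 to 1.17 FPKM in wild type 1 and transgenic 1, and 0.202 to 0.446 and 0.283 to 0.60 FPKM in wild type 2 and transgenic 2. The genotypes therefore could not be told apart within a number at this depth, while number 1 lay above number 2 in both genotypes. Egr1 made up 99.5% to 99.8% of the summed FPKM of both genes.

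NR4A1, an orphan nuclear receptor also called Nur77, was the main NR4A gene of these islets, with 76.0% to 85.5% of the family's summed FPKM. Nr4a1 (ENSMUSG00000023034, chromosome 15, bases 101254269 to 101274795) stood at 27.1 FPKM in wt1, 10.5 in wt2, 49.5 in miR29ab1 and 8.59 in miR29ab2. It was the only member whose order between the genotypes differed between the numbers, with transgenic to wild type ratios of 1.82 and 0.820. The 95% exact Poisson intervals of the number 2 libraries did not overlap, at 9.82 to 11.2 FPKM in wild type and 7.93 to 9.28 FPKM in transgenic islets. The spread between replicates within a number was not measured. Its number 1 to number 2 ratio was 2.59 in wild type and 5.76 in transgenic islets.

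NR4A2, also called Nurr1, and NR4A3, also called Nor1, were lower. Nr4a2 (ENSMUSG00000026826, chromosome 2, bases 57106830 to 57124003) stood at 6.04, 2.26, 7.46 and 2.59 FPKM in wt1, wt2, miR29ab1 and miR29ab2. The transgenic library was the higher in each number, by 1.24 and 1.15 times, and both number 2 libraries lay below both number 1 libraries. Nr4a3 (ENSMUSG00000028341, chromosome 4, bases 48045153 to 48086447), below the level tested, stood at 0.539, 0.0644, 0.933 and 0.119 FPKM in the same order, from 77, 10, 144 and 15 reads. In number 1 its 95% exact Poisson intervals did not overlap, with 0.425 to 0.673 FPKM in wild type and 0.787 to 1.10 FPKM in transgenic islets. In number 2 they did, with 0.0309 to 0.118 and 0.0667 to 0.197 FPKM. Its number 1 to number 2 ratio, 8.36 in wild type and 7.82 in transgenic islets, rested on the few reads of the number 2 libraries. The summed FPKM of the 3 NR4A genes was 33.7, 12.8, 57.9 and 11.3.

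IER2, a nuclear protein with a role in transcription, and IER3, a stress-induced regulator of cell survival, are named for their immediate early response and are not related in sequence. Ier2 (ENSMUSG00000053560, chromosome 8, bases 84661331 to 84662852) stood at 63.8, 23.2, 98.0 and 34 FPKM in wt1, wt2, miR29ab1 and miR29ab2. Ier3 (ENSMUSG00000003541, chromosome 17, bases 35821684 to 35822923) stood at 11.6, 4.43, 14.5 and 6.82 FPKM. For both genes the 2 number 1 libraries were the highest, and transgenic exceeded wild type in each number, by 1.54 and 1.47 times for Ier2 and by 1.25 and 1.54 times for Ier3. As for the other members, transgenic 2 lay below wild type 1, so the genotypes overlapped.

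The 2 messenger RNA decay genes were both abundant. Zfp36 (ENSMUSG00000044786, chromosome 7, bases 28376784 to 28380253) encodes tristetraprolin, which binds AU-rich elements and recruits the CCR4-NOT deadenylase, and stood at 24.5, 11.7, 35.3 and 17.4 FPKM in wt1, wt2, miR29ab1 and miR29ab2. The transgenic library was the higher in each number, by 1.44 and 1.48 times, and the number 1 to number 2 ratios, 2.09 and 2.03, were the smallest of the members. An antisense model, Gm44710, overlaps Zfp36, and its 4 to 10 reads per library came to 0.346% of the Zfp36 reads, while whether reads were counted by strand is not given. Btg2 (ENSMUSG00000020423, chromosome 1, bases 134075170 to 134079120) encodes an antiproliferative protein that binds the same deadenylase, and stood at 174, 60.5, 218 and 72.0 FPKM. Its transgenic libraries were the higher by 1.25 and 1.19 times, and its number 1 to number 2 ratios were 2.88 and 3.02. The group means of Btg2 were 117 ± 80.3 and 145 ± 103 FPKM (SD, n = 2 each), closer than either SD.

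DUSP1, the phosphatase also called MKP-1 that inactivates p38, JNK and ERK kinases, had the largest mean number difference of the tested members on the log2(FPKM + 1) scale. Dusp1 (ENSMUSG00000024190, chromosome 17, bases 26505590 to 26508519) stood at 207 FPKM in wt1, 38.1 in wt2, 315 in miR29ab1 and 55.3 in miR29ab2. The number 1 to number 2 ratio was 5.44 in wild type and 5.70 in transgenic islets, against transgenic to wild type ratios of 1.52 in number 1 and 1.45 in number 2.

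**Figure D2:**
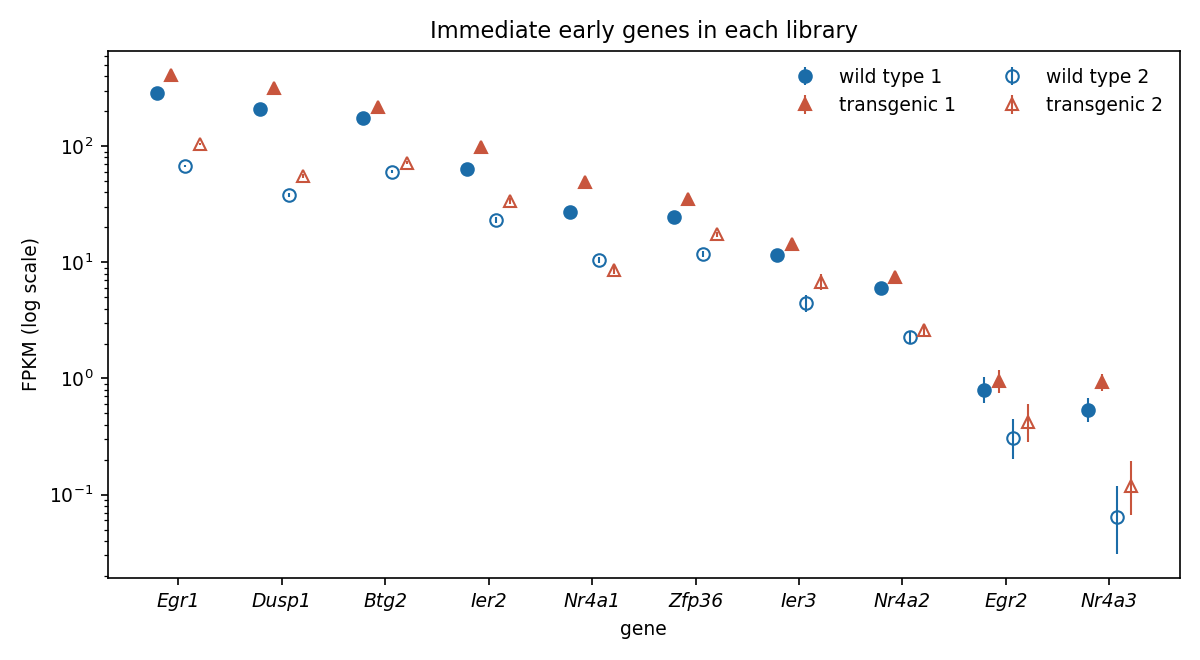
FPKM of each of the 10 members on a log axis in the 4 libraries, with 95% exact Poisson intervals of the reads as bars (counting error only). In each gene the number 1 libraries lie above the number 2 libraries, and the transgenic library lies above the wild-type library of its number in each case but Nr4a1 in number 2.

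The order of the levels was nearly the same in the 4 libraries. Egr1 was the highest, Ier2 held rank 4, and Ier3, Nr4a2, Egr2 and Nr4a3 took the last 4 places in that order in each library. Dusp1 stood above Btg2 in both number 1 libraries (207 and 174 FPKM in wild type, 315 and 218 in transgenic) and below it in both number 2 libraries (38.1 and 60.5 FPKM, 55.3 and 72.0). Nr4a1 likewise stood above Zfp36 in number 1 and below it in number 2. The order of the neighbours Dusp1 and Btg2, and of Nr4a1 and Zfp36, therefore went with the library number in both genotypes. Neither gene of a pair was the higher throughout, and these differences were not tested. Together the 10 members held 804, 219, 1148 and 302 FPKM in wt1, wt2, miR29ab1 and miR29ab2, from 63206, 18161, 97472 and 20583 reads.

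The difference between the library numbers was the larger of the 2 differences in these genes. It is given as a description, since the labels do not say what the number stands for. Of the 8 tested members, 7 had both number 1 libraries at least 1.5-fold above both number 2 libraries, against 6.14% of the 12716 genes tested, and the exception, Zfp36, also had both number 1 libraries above both number 2 libraries. None showed the reverse, which 4.4% of genes did. The median number difference of the tested members was 1.504 on the log2(FPKM + 1) scale, against -0.01 over all genes tested. Dusp1, with 2.45, ranked 23 among all genes tested, Egr1, with 2.01, ranked 62, and the smallest difference, that of Zfp36, was 0.99 at rank 365.

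The comparison of genotypes, which asks what changes in islets when beta cells carry more miR-29, called no member over all 4 libraries. In limma on log2(FPKM + 1), with genotype alone in the model, 0% of the 12716 genes were called higher and 0% lower at an adjusted p of 0.05, with 83 genes at an unadjusted p under 0.05. The voom fit of the recovered reads without the library number called 0 genes as well, with 32 under an unadjusted p of 0.05. The log2 fold changes of the members were 0.57 ± 0.97 (SE) for Egr1, 0.57 ± 0.71 for Ier2, 0.56 ± 1.18 for Dusp1, 0.52 ± 0.49 for Zfp36, 0.41 ± 0.54 for Ier3, 0.29 ± 0.92 for Nr4a1, 0.28 ± 0.75 for Btg2 and 0.20 ± 0.57 for Nr4a2, each with a limma adjusted p of 1.00. In the fit without a filter on low values, Egr2 had 0.12 ± 0.26 and Nr4a3 0.20 ± 0.35. For 7 of the 8 tested members the SE exceeded the fold change, and Zfp36 was the exception. Leaving out wt2 or miR29ab1, which leaves the numbers unequal between the genotypes, turned the sign of each tested member but Zfp36, and the members' median of 0.47 became -0.35 without wt2 and -0.41 without miR29ab1. None of the 8 had both transgenic libraries above both wild-type libraries, against 12.2% of genes.

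Within the numbers the transgenic library was mostly the higher. All tested members but Nr4a1, 7 of 8, were at higher FPKM in the transgenic library of both numbers, against 33.5% of genes, and 5 were at least 1.2-fold higher in both, against 4.17%. Those 5 were Egr1, Ier2, Ier3, Zfp36 and Dusp1. The median difference of the tested members on the log2(FPKM + 1) scale was 0.51 in number 1 and 0.53 in number 2, against 0.02 and 0.01 over all genes. The rank of the mean difference among all genes was 83 for Ier2, 87 for Egr1, 89 for Dusp1 and 104 for Zfp36, and 1527 for Nr4a2, the lowest of the members.

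**Figure D3:**
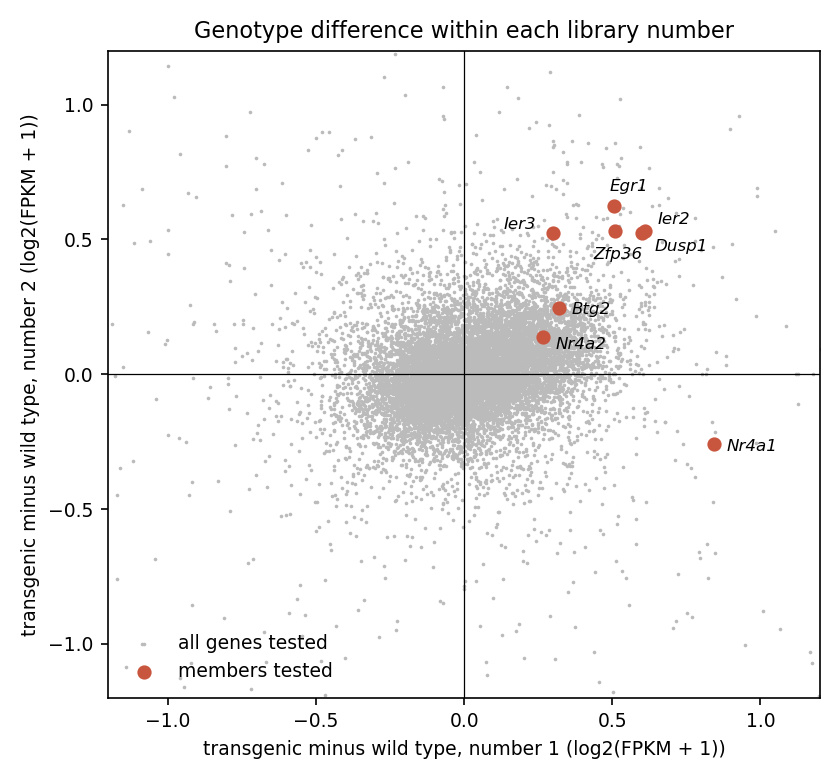
Transgenic minus wild-type log2(FPKM + 1) in number 1 (x axis) against number 2 (y axis), with the genes tested in grey (106 lie outside the axes) and the 8 tested members named. The members other than Nr4a1 lie above 0 on both axes, and Nr4a1 lies at 0.84 in number 1 and -0.26 in number 2.

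With the library number as a term, 4 members were called higher in transgenic islets. This voom fit of the recovered reads leaves 1 residual degree of freedom per gene and borrows 44.8 from the other genes. Its SE and p therefore rest mostly on a spread shared over genes and little on a gene's own replication. It called 1.6% of genes higher and 0.267% lower. Egr1 rose by a log2 fold change of 0.58 ± 0.09 (SE; voom adjusted p = 8.7e-05), Ier2 by 0.59 ± 0.09 (voom adjusted p = 6.0e-05), Dusp1 by 0.57 ± 0.09 (voom adjusted p = 6.0e-05) and Zfp36 by 0.54 ± 0.09 (voom adjusted p = 0.00017), each in 2 of 2 numbers. The other 4 did not pass, with 0.42 ± 0.15 for Ier3 (voom adjusted p = 0.123), 0.38 ± 0.13 for Nr4a1 (0.110), 0.29 ± 0.09 for Btg2 (0.0788) and 0.27 ± 0.12 for Nr4a2 (0.249). None was called lower. Neither voom without the number nor limma with the number as a block called any member, and in the latter the limma adjusted p of the members ran from 0.366 to 0.673.

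The same 4 members were called when that fit was corrected for GC content, by subtracting a smooth curve from each library. Here 0.637% of genes were called higher, and the fit borrowed 1091 degrees of freedom from the other genes. The fold changes were then 0.41 ± 0.09 for Egr1 (voom adjusted p = 0.00144), 0.36 ± 0.09 for Ier2 (0.0157), 0.47 ± 0.09 for Dusp1 (3.9e-05) and 0.44 ± 0.09 for Zfp36 (0.000364). That of Ier2, whose GC content of 60.9% was the highest of the members, moved by more than 1.5 times, and so did that of Nr4a1, to 0.21 ± 0.09 (0.483). Scaling libraries to their summed reads instead of the totals implied by the authors' FPKM was a setting chosen after seeing the data. It moved the median of all genes from 0.02 to 0.08, and 2.28% of genes were called higher. Nr4a1, with 0.46 ± 0.12 (voom adjusted p = 0.0112), and Btg2, with 0.36 ± 0.10 (0.0359), then joined the other 4.

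**Figure D4:**
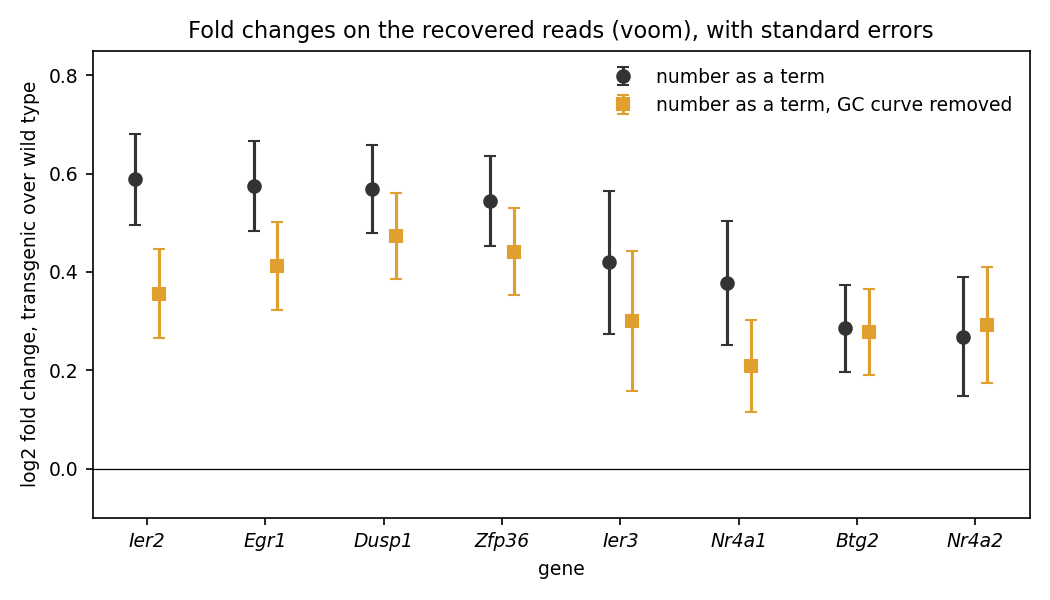
Log2 fold change of transgenic over wild type, with SE as bars, for the 8 tested members in voom with the library number in the model, with and without removal of the GC curve. Egr1, Ier2, Dusp1 and Zfp36 lie between 0.36 and 0.59 in both versions, and the removal lowers Ier2 and Nr4a1 the most.

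Of the relatives of the members, 3 were called in the fit with library number. The list holds 24 genes, other members of the EGR, IER, ZFP36, BTG/TOB and DUSP families, the EGR corepressors Nab1 and Nab2 and the IER3-binding Ier3ip1, of which 20 were tested. Their median difference was 0.20 in number 1 and 0.07 in number 2, 12 of the 20 were higher in both numbers, against 33.5% of genes, and 2 lower. Over all 4 libraries limma called none. The voom fit with library number called 3 of the 20 higher, against 1.6% of genes, and none lower. After GC correction it called 1 of the 3, against 0.637% of genes. Ier5, a regulator of the heat shock factor HSF1, rose from 16.3 and 14.9 FPKM in wild type 1 and 2 to 22.2 and 18.9 in transgenic 1 and 2 (log2 fold change 0.40 ± 0.09, voom adjusted p = 0.0109), and both transgenic libraries lay above both wild-type libraries. Zfp36l2, a paralog of Zfp36 with the same kind of RNA target, stood at 13.8, 12.0, 18.1 and 14.9 FPKM (0.36 ± 0.09, voom adjusted p = 0.0308, and 0.319 after GC correction). The third, Dusp5, an ERK phosphatase named after its values were seen, stood at 31.0, 17.1, 43.3 and 19.2 FPKM (0.34 ± 0.09, voom adjusted p = 0.0482, and 0.60 after GC correction). Tob2, a relative of Btg2, stood at 2.65, 3.57, 4.06 and 3.98 FPKM and did not pass (voom adjusted p = 0.0688). Between the numbers, 7 of the 20 relatives had both number 1 libraries at least 1.5-fold above both number 2 libraries, against 6.14% of genes.

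Many other immediate early genes were called beside the members. The list of 43, all tested, holds the FOS and JUN families, KLF factors, growth arrest and feedback genes and others, and it had a median difference of 0.38 in number 1 and 0.23 in number 2. In it 36 genes were higher in transgenic islets in both numbers, against 33.5% of all genes tested, and 1 was lower. In 32, both number 1 libraries were at least 1.5-fold above both number 2 libraries, against 6.14% of genes. None of the 43 was called by limma. The voom fit with library number called 22 higher, against 1.6% of genes, and 1 lower, against 0.267%. After GC correction it called 14 higher, against 0.637% of genes, and none lower. Gadd45g, a growth arrest and stress gene, stood at 96.5, 62.4, 141 and 87.5 FPKM in wt1, wt2, miR29ab1 and miR29ab2 and rose by 0.51 ± 0.09 (voom adjusted p = 0.000254, and 0.0523 after GC correction). Id1 and Id3, inhibitors of helix-loop-helix factors, stood at 6.39, 7.05, 8.63 and 8.12 FPKM and at 4.77, 5.43, 6.30 and 6.22 FPKM, with both transgenic libraries above both wild-type libraries, and did not pass (voom adjusted p = 0.289 and 0.292). The gene called lower was Rgs2, a regulator of G protein signalling chosen for mention after its values were seen, at 92.6, 219, 63.0 and 193 FPKM (-0.37 ± 0.09, voom adjusted p = 0.0200), and it was also the gene of the list with both number 2 libraries at least 1.5-fold above both number 1 libraries.

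Of the kinases and transcription factors that act upstream of immediate early genes, and of the deadenylase recruited by Zfp36 and Btg2, 1 gene was called. Of 40 upstream genes 36 were tested, with a median difference of 0.06 in number 1 and 0.05 in number 2. In both numbers 15 were higher, against 33.5% of all genes tested, and 13 lower. Number 1 was at least 1.5-fold above number 2 in 3, against 6.14% of genes. None was called by limma. The voom fit with library number called 1 of the 36, against 1.6% of genes, and none after GC correction. It was Map2k2, the ERK kinase MEK2, at 12.0, 11.2, 17.3 and 13.7 FPKM (0.41 ± 0.09, voom adjusted p = 0.00705, and 0.523 after GC correction). Mapk8, which encodes the kinase JNK1, stood at 2.68, 2.65, 2.25 and 2.24 FPKM, with both transgenic libraries below both wild-type libraries, and did not pass (voom adjusted p = 0.213). Rps6ka4, which encodes the kinase MSK2, stood at 5.25, 5.43, 7.0 and 6.23 FPKM and did not pass (voom adjusted p = 0.163). The 15 tested subunits and adaptors of the CCR4-NOT deadenylase had a median of -0.01 in number 1 and -0.03 in number 2. In both numbers 4 were higher, against 33.5% of genes, and 5 lower. Neither limma nor the voom fit with library number called any of these, and none had both libraries of a number at least 1.5-fold above both libraries of the other.

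The genes whose profile over the 4 libraries lay nearest to the members' mean profile were found by the Euclidean distance of centred log2(FPKM + 1) values, among tested genes with a mean of at least 5 FPKM. The members were left out, and so were genes with names of the kind given to predicted models, clones and pseudogenes. The 8 nearest, from a distance of 0.0473 to 0.212, were Siah2, Cyr61, Bhlhe40, Plk3, Lmna, Slc20a1, Pdia4 and Socs3, and Cyr61, Bhlhe40, Plk3 and Socs3 belong to the list of other immediate early genes. Siah2, the nearest, stood at 32.2, 10.6, 45.1 and 13.4 FPKM in wt1, wt2, miR29ab1 and miR29ab2. The members' own distances to their mean ranged from 0.148 for Btg2 to 0.891 for Dusp1. The likeness is over 4 libraries and is mostly that of the number difference.

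The sums of heat shock genes and of acinar cell markers followed the same order over the libraries as the sum of the members, and their part in the members' differences was not tested. The 11 heat shock genes summed to 3459, 1498, 4465 and 1674 FPKM in wt1, wt2, miR29ab1 and miR29ab2. Of them 9 were higher in transgenic islets in both numbers, against 33.5% of genes. By voom with number as a term 4 were called higher, against 1.6% of genes, and 1 with the GC curve removed, against 0.637%. That gene was Dnajb1, a cochaperone of HSP70, at 291, 62.0, 441 and 101 FPKM (0.65 ± 0.09, voom adjusted p = 7.8e-06). Hspb1, a small heat shock protein, stood at 55.2, 33.9, 92.9 and 38.2 FPKM (0.49 log2, voom adjusted p = 0.00388), and Hsp90ab1, a constitutive chaperone, at 622, 344, 748 and 393 FPKM (0.23 log2, voom adjusted p = 0.208). The 16 acinar markers, none at 0 in all libraries, summed to 5058, 1067, 6783 and 1836 FPKM, so the sum was 1.34 times as high in the transgenic library in number 1 and 1.72 times in number 2, against 1.43 and 1.38 times for the 10 members. All 14 acinar markers tested were called higher by voom with number as a term, against 1.6% of genes, and 13 with the GC curve removed, against 0.637%. Of the 14, 12 had both number 1 libraries at least 1.5-fold above both number 2 libraries, against 6.14% of genes. In these whole-islet libraries, fewer or more cells of a type and less or more RNA per cell cannot be told apart.

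The sums of markers of other cell types did not share that order, except the sum of endothelial markers. Summed endothelial markers were 93.9, 76.1, 116 and 90.9 FPKM in wt1, wt2, miR29ab1 and miR29ab2. Of the 8 endothelial markers 4 were higher in both numbers, against 33.5% of genes, so the order of the sum was not that of each marker. Of them 1 of 8 was called higher by voom with number as a term, against 1.6% of genes, and none with the GC curve removed. Summed macrophage and dendritic cell markers were 124, 127, 148 and 109 FPKM. Summed alpha cell markers were 14177, 14045, 13368 and 13359 FPKM, and those of delta, PP and epsilon cells 6466, 13490, 6888 and 13587 FPKM. The summed beta cell markers were 0.677 times as high in transgenic as in wild type in number 1 and 0.946 times in number 2. That sum is mostly Ins2, while the median difference of the 10 beta cell markers was -0.02 in number 1 and -0.04 in number 2. Of the 10, 2 were higher in both numbers, against 33.5% of genes, and 5 were lower in both. The marker called higher was Mafa, a beta cell transcription factor, at 102, 141, 155 and 168 FPKM (0.43 ± 0.09, voom adjusted p = 0.0046, and 0.695 after GC correction), and after GC correction Ins2 was called lower (voom adjusted p = 0.0340). The tested members' own ratios in number 2 were 1.55 for Egr1, 1.54 for Ier3, 1.48 for Zfp36, 1.47 for Ier2 and 1.45 for Dusp1. They were 1.19 for Btg2, 1.15 for Nr4a2 and 0.820 for Nr4a1. The part of islet makeup in these ratios was not tested.

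**Figure D5:**
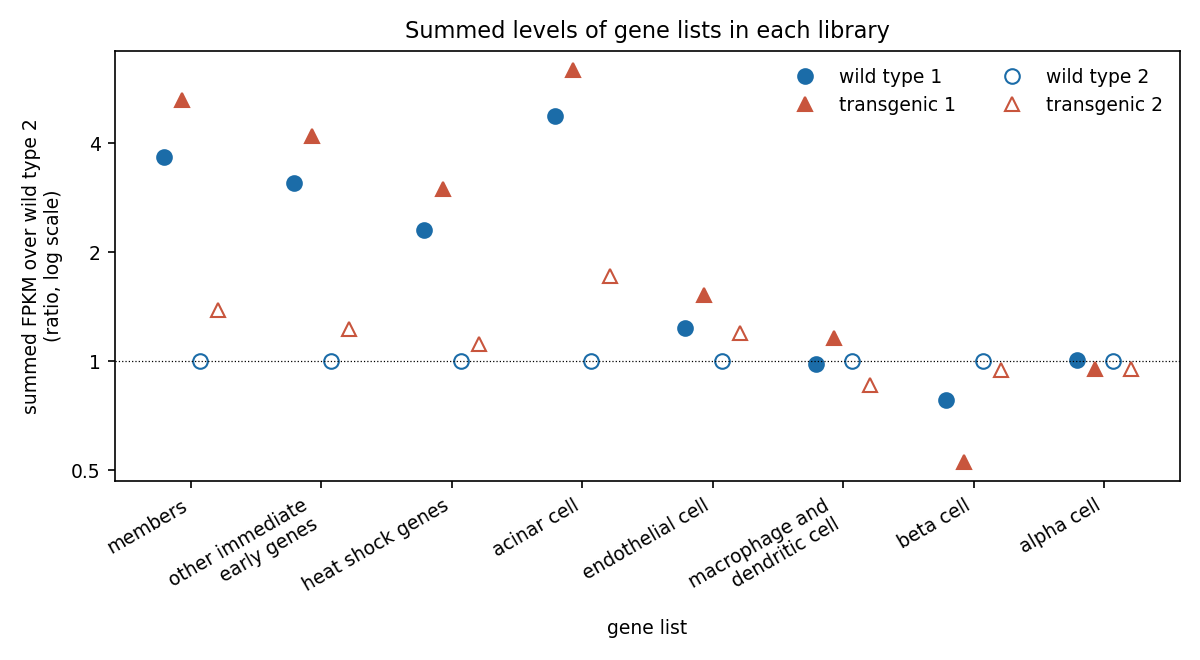
Summed FPKM of gene lists in each library, divided by the sum in wild type 2, on a log axis. Shown are the members, the other immediate early genes, the heat shock genes and acinar, endothelial, macrophage and dendritic, beta and alpha cell markers. The members, the other immediate early genes, the heat shock genes and the acinar and endothelial markers are highest in transgenic 1, followed by wild type 1, transgenic 2 and wild type 2. The alpha cell markers lie near 1 in each library.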

How the data were processed

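Islet RNA was sequenced in 4 libraries, whose genotype comes from the labels. Islets were isolated and frozen, RNA was extracted with Trizol, and libraries were made with an Illumina TruSeq kit from total RNA, per the labels' protocols. The submitters' processing notes name HTSeq 0.6.0 and GRCm38, and neither the aligner nor the use of strand is given in the sources used here. The table deposited by the authors holds FPKM and gene lengths.

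FPKM times gene length was a whole multiple of 1 step per library for all values above 0, within 0.001, and these multiples were taken as reads. Intervals are exact Poisson or binomial at 95% and cover counting error alone. Reads that carry no molecular identifiers may repeat the same molecule, and the intervals would then be too narrow. Genes with at least 1 FPKM in at least 2 libraries were tested (12716) on log2(FPKM + 1) by limma (version 3.58.1, R 4.3.3, moderated with a mean trend), a scale that understates the changes of low genes, 2-sided, with Benjamini-Hochberg adjustment over all of them and a threshold of 0.05. Because library numbers separated the samples, voom was run on the reads, at the authors' scaling, with the number as a term; lowess curves on GC content had a span of 0.3. The labels do not say that a number marks a shared batch, but same-numbered libraries deviated together from their group means (r = 0.775, a single value, since with 2 libraries per group the deviations of number 2 mirror those of number 1). Alternatives were another pseudocount, filters, scalings, each library left out and the replicate block. Limma, with and without the block, and voom with the block were also run on simulated counts. These had the same spread for each gene and no added GC effect, so that run cannot vouch for the fits on these libraries.

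The members and lists were chosen with earlier results of these data known, so no count over them is independent evidence. Genes named outside the members are the 3 with the smallest limma p in each of 4 lists (relatives, other immediate early genes, upstream genes, heat shock genes) and the 8 of nearest profile, besides Rgs2, Dusp5, Mafa and Ins2, which were named after their values were seen; the deadenylase and cell type lists are given as counts and sums. Duct, stellate and pericyte, lymphocyte, and Schwann cell and neuron markers summed to at most 85.4, 35.4, 7.87 and 19.4 FPKM in any library, and 1 lymphocyte marker and 1 relative were at 0 in all 4 libraries.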

Additional observations from a re-analysis of the deposited data

Results flagged for a closer look

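Nr4a1 had effects of opposite sign in the 2 library numbers. The difference of transgenic and wild type on the log2(FPKM + 1) scale was 0.84 in number 1, from 27.1 to 49.5 FPKM, and -0.26 in number 2, from 10.5 to 8.59 FPKM. With 1 library of each genotype in a number, this difference between the numbers was not tested. The other tested members had differences above 0 in both numbers.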

How the results depend on the processing

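Of the scalings, the median ratio divided each of the 4 libraries by the same 1.004. Equal sums without Ins2, Ins1 and Iapp divided them by 0.993 to 1.006. Both could hardly change a call, so they say little of how the results depend on scaling. No gene was called over the 4 libraries with a pseudocount of 0.1, without a filter, at 5 FPKM, with quantile normalization or with these scalings. Leaving out a library gave 95 to 151 genes with an unadjusted limma p under 0.05. The replicate block changed this on the recovered reads: voom with the block called 204 genes higher and 34 lower, 4 of them members, all higher; with the GC curve removed 81 and 30, again 4 members; and scaled to summed reads, a setting chosen after seeing the data, 290 and 10, with 6 members. limma with the block called 0 genes, and 3 higher and 1 lower with the GC curve removed, no member among them. The pairing by number rests on the data and not on the labels, and these fits leave 1 residual degree of freedom. In voom with the block they borrowed 44.8 degrees of freedom from the other genes, and 1091 with the GC curve removed. Scaled to summed reads the borrowed number was infinite, and in limma with the block it was 3.74.

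The median of the upstream genes was 0.05 and became 0.13 at 5 FPKM, 0.0297 under quantile normalization, 0.0240 in limma and 0.0236 in voom with the block and GC curve, 0.0718 in voom without the block and 0.14 scaled to summed reads. That of the deadenylase changed sign from -0.04 to 0.00736 in limma and 0.00553 in voom with the block and GC curve, and to 0.0278 scaled to summed reads; the cause was not tested.

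Leaving out 1 library left the numbers unequally represented, and the log2 fold changes then ranged from -0.47 to 1.60 for Egr1, -0.91 to 1.49 for Nr4a1, -0.42 to 0.82 for Nr4a2, -0.18 to 1.32 for Ier2, -0.19 to 1.02 for Ier3, 0.02 to 1.02 for Zfp36, -0.51 to 1.07 for Btg2, -0.68 to 1.81 for Dusp1, -0.46 to 1.75 for Dnajb1, -0.18 to 1.08 for Hspb1 and -0.23 to 0.69 for Hsp90ab1. The medians ranged from -0.41 to 1.198 for the members, -0.13 to 0.41 for relatives, -0.30 to 0.98 for other immediate early genes, 0.000459 to 0.124 for upstream genes, -0.0417 to 0.00247 for the deadenylase and -0.40 to 0.71 for heat shock genes. Each tested member but Zfp36 changed sign without wt2 and also without miR29ab1. At this depth Egr2 and Nr4a3, with 10 to 144 reads, limit what can be told of genotype.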
